A study of Macaca mulatta with 4 samples.

Results

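Blood drawn from a rhesus macaque study after immunosuppression was compared with blood drawn before it, at a stage when no islets had been transplanted. The comparison took every deposited cell label with at least 50 cells in both libraries. These were T cells (841 cells before and 115 after), CD14+ monocytes (256 and 329) and MS4A7+ monocytes (75 and 131). They made up 1747 of the 2531 labelled cells of both libraries, and the whole series holds 6993 cells. Cell shares were taken over all labels.

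The study transplanted islets made from human pluripotent stem cells into diabetic macaques, and this series followed peripheral blood mononuclear cells by droplet single-cell RNA sequencing. Cells of the Pre-IS library had met no immunosuppression, those of Post-IS had, and neither had met a graft. Libraries from 4 and 8 weeks after transplantation (4 wpt and 8 wpt) are quoted only as levels beside the comparison. The labels name no drug, dose or interval between draws and do not say whether 1 animal or several gave the blood. No genotype or age is given for any group.

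Immunosuppression is given to graft recipients to keep lymphocytes, chiefly T cells, from attacking foreign tissue. Classical monocytes, which carry CD14, enter tissues and respond fast to injury and infection, whereas nonclassical monocytes patrol the vessel wall. Every nucleated blood cell also holds a small mitochondrial genome, which encodes core subunits of the respiratory chain and is copied as long transcripts that are then cut into single messages.

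Each group was 1 library, so there was no replicate spread and no test between groups. UMIs (unique molecular identifiers, each counting 1 captured RNA molecule) were added up within a class of each library and given as CPM, counts per 1000000 UMIs of that class. Ratios are Post-IS over Pre-IS with an exact conditional binomial 95% interval, which covers counting error only and treats UMIs as independent. A gene was called higher or lower when the whole interval lay beyond 1.5-fold. Fewer cells with a transcript and less of it per cell both lower such a sum.

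Depth differed between the libraries, most in monocytes. The median UMIs per cell were 1526 before and 1257 after in T cells, 2058.5 and 1196 in CD14+ monocytes, and 1111 and 822 in MS4A7+ monocytes. Cells under 1000 UMIs made up 10.5% and 26.1%, 13.7% and 43.2%, and 44% and 58.0% of these classes. The class totals were 1349957 and 143725 UMIs in T cells, 548156 and 448622 in CD14+ monocytes, and 100047 and 137874 in MS4A7+ monocytes. The 2 libraries shared 3 cell barcodes.

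The labels held against their markers. At least 1 of 7 T cell markers was found in 99% of Pre-IS and 98.3% of Post-IS T cells. The 8 classical monocyte markers summed to 22158 CPM before and 22975 CPM after under the CD14+ label. Under the MS4A7+ label they summed to 1849 and 1958 CPM. The 9 nonclassical markers summed to 6797 and 5984 CPM under the MS4A7+ label and to 578 and 1016 CPM under the CD14+ label. Markers of other cells moved as well. Classical monocyte markers under the T cell label went from 28.1 to 146 CPM summed, in 4.16% and 15.7% of cells, with 2 and 3 of 8 at 0. NK cell markers there went from 2660 to 1461 CPM, in 44.8% and 20.9% of cells. Platelet markers under the CD14+ label went from 29.2 to 281 CPM, with 3 of 7 and 0 of 7 at 0. T cell markers under the MS4A7+ label went from 80.0 CPM to 0, with all 7 at 0 after.

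The lymphocytes of the Post-IS library were mostly T cells. By share of all labelled cells, lymphocytes stood at 81.3% before and 23.1% after, and monocytes at 17.2% and 76.3%. Among lymphocytes alone, T cells were 53.7% before (95% exact binomial interval 51.2 to 56.2) and 82.7% after (75.4 to 88.6), with an odds ratio of 4.14 (2.61 to 6.79). NK cells, innate killers, were 16.4% of lymphocytes before (14.6 to 18.3) and 6.47% after (3.0 to 11.9). B lineage cells were 29.4% (27.2 to 31.7) and 9.35% (5.07 to 15.5). The share of T cells was thus lower among all cells and higher among lymphocytes.

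Within each of the smaller compartments less could be seen. MS4A7+ monocytes were 22.7% of monocytes before (18.3 to 27.6) and 28.5% after (24.4 to 32.8), with an odds ratio of 1.36 (0.968 to 1.92), an interval that includes 1. Naive B cells were 110 of 461 B lineage cells before and 1 of 13 after, with an odds ratio whose interval ran from 0.00617 to 1.84. Dendritic cells, at 1.56% (1.05 to 2.21) and 0.663% (0.181 to 1.69), and proliferating NK and T cells, at 0.415% (0.179 to 0.816) and 0.332% (0.0402 to 1.19), had overlapping intervals. No cell was labelled a platelet in either library, which allows shares of up to 0.156% and 0.498% by a floor of 3 cells.

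**Figure D1:**
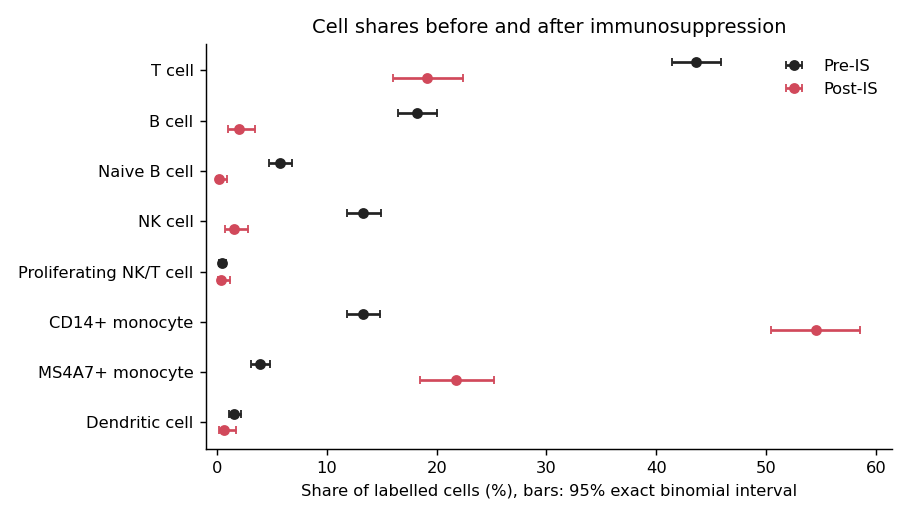
Share of all labelled cells in percent for each label, with Pre-IS in black and Post-IS in red and bars for 95% exact binomial intervals. CD14+ and MS4A7+ monocytes lie to the right of their Pre-IS shares, T, B, naive B and NK cells to the left, and the intervals of dendritic and proliferating cells overlap.

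Few genes changed in the same way in all 3 classes. Of 1653 genes measured in each of them, 5 (0.302%) were called higher in all 3 and 0 (0%) were called lower in all 3. Of the 5, 4 are encoded by the mitochondrial genome (ND4L, COX2, COX1 and CYTB), and the other carries the identifier ENSMMUG00000002075 with no symbol. In total 172 genes were called in at least 1 class, 157 of them in 1 class, 10 in 2 and 5 in 3. The number called in T cells was 42 of 3972 higher (1.06%) and 35 lower (0.881%). In CD14+ monocytes it was 76 of 4577 higher (1.66%) and 15 lower (0.328%), and in MS4A7+ monocytes 21 of 2053 higher (1.02%) and 3 lower (0.146%). No gene was called in opposite directions. The shared call of CYTB was lost with a minimum of 50 UMIs, those of CYTB and ENSMMUG00000002075 with cells thinned to 1000 UMIs or a 2-fold threshold, and that of ND4L as well with class sums thinned to the same totals.

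COX2 encodes a subunit of cytochrome c oxidase, the last complex of the respiratory chain. In T cells the Pre-IS level was 221 CPM and the Post-IS level 932 CPM, with 137 CPM at 4 wpt and 191 CPM at 8 wpt. In CD14+ monocytes it was 405, 1422, 224 and 340 CPM, and in MS4A7+ monocytes 600, 2546, 357 and 412 CPM. The Post-IS library was the highest of the 4 in each class. The ratio to Pre-IS was 4.22 (3.42 to 5.20) in T cells, 3.51 (3.01 to 4.11) in CD14+ and 4.25 (3.22 to 5.68) in MS4A7+ monocytes. UMIs of COX2 were found in 29.3% of Pre-IS and 60.9% of Post-IS T cells, so the change did not rest on a few cells.

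COX1, the catalytic subunit of the same complex, stood at 473, 1204, 347 and 443 CPM in T cells in the order Pre-IS, Post-IS, 4 wpt and 8 wpt. It stood at 772, 1866, 423 and 759 CPM in CD14+ monocytes and at 1449, 3786, 724 and 1099 CPM in MS4A7+ monocytes. Again Post-IS was the highest of the 4 in each class. The ratio was 2.55 (2.14 to 3.02) in T cells, 2.42 (2.15 to 2.72) in CD14+ monocytes and 2.61 (2.17 to 3.16) in MS4A7+ monocytes. These 3 ratios lay close together, and each interval held the other 2 values.

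CYTB encodes cytochrome b of complex III. It had 30 and 16 UMIs in T cells (22.2 and 111 CPM), 33 and 82 in CD14+ monocytes (60.2 and 183 CPM), and 9 and 47 in MS4A7+ monocytes (90.0 and 341 CPM). The ratios were 5.01 (2.55 to 9.49), 3.04 (2.0 to 4.70) and 3.79 (1.84 to 8.79). ND4L, a small subunit of complex I, showed the widest ratios, on few Pre-IS UMIs. It had 36 and 30 UMIs in T cells, 10 and 204 in CD14+ monocytes and 6 and 88 in MS4A7+ monocytes. The ratio was 7.83 (4.66 to 13.1), 24.9 (13.3 to 52.8) and 10.6 (4.70 to 29.8). ND4L overlaps its neighbour ND4 in the mitochondrial genome, so counting could split reads between them, and the nuclear genome holds copies of mitochondrial genes. ENSMMUG00000002075 had ratios of 3.35 (1.73 to 6.17), 4.90 (3.85 to 6.29) and 3.83 (2.41 to 6.34) in the same class order.

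The mitochondrial transcripts did not move as a block. Of 12 in the table, 10, 11 and 10 were measured in T cells, CD14+ and MS4A7+ monocytes, of which 6, 5 and 4 were called higher and 0 lower. Median log2 ratios were 1.27, 1.18 and 1.12, against medians over all measured genes between -0.00042 and 0.023. Of all measured genes 1.06%, 1.66% and 1.02% were called higher in these classes. COX3, another subunit of cytochrome c oxidase, stood at 3527 and 4898 CPM in T cells, 5289 and 6310 CPM in CD14+ monocytes, and 10555 and 11909 CPM in MS4A7+ monocytes. Its ratios were 1.39 (1.28 to 1.5), 1.19 (1.13 to 1.26) and 1.13 (1.04 to 1.22), short of the call in every class. The complex I subunit ND4 was at 1.69 (1.10 to 2.50), 1.2 (0.956 to 1.5) and 1.08 (0.743 to 1.59). ND1 was called in T cells alone, at 2.26 (1.74 to 2.91), and ND5 in T cells and CD14+ monocytes, at 4.14 (2.10 to 7.81) and 2.62 (1.80 to 3.87). Both lay above 1 in the other classes too. ND1 was at 1.55 (1.32 to 1.83) in CD14+ and 1.57 (1.22 to 2.05) in MS4A7+ monocytes. ND5 was at 2.13 (1.13 to 4.22) in MS4A7+ monocytes. ND6 had 0 UMIs in both libraries in all 3 classes.

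**Figure D2:**
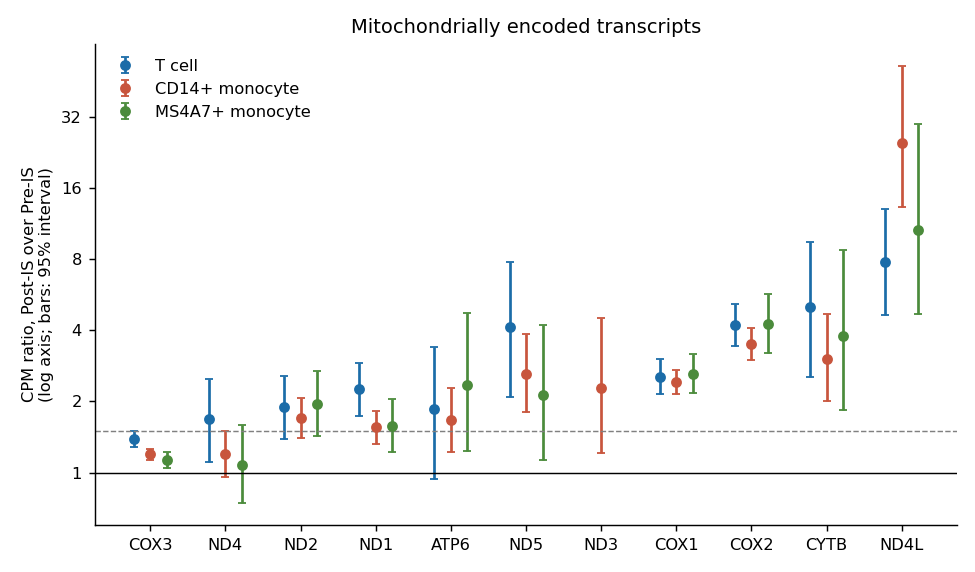
CPM ratio of Post-IS over Pre-IS on a log axis for mitochondrially encoded transcripts with at least 20 UMIs, by class, with 95% intervals, a solid line at 1 and a dashed line at 1.5. COX1, COX2, CYTB and ND4L lie above the dashed line with their whole intervals in all 3 classes, while COX3 stays between 1.13 and 1.39.

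Set against COX3 within the same cells, which removes the class total from the ratio, COX2 was still 3.04-fold (2.42 to 3.80), 2.94-fold (2.50 to 3.47) and 3.76-fold higher (2.82 to 5.09) in T cells, CD14+ and MS4A7+ monocytes. COX1 was 1.83-fold (1.51 to 2.21), 2.03-fold (1.78 to 2.31) and 2.32-fold higher (1.89 to 2.85). ND4 was not, at 1.21 (0.788 to 1.82), 1.00 (0.796 to 1.27) and 0.958 (0.652 to 1.42). The makeup of the mitochondrial RNA thus differed, besides its amount.

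This showed in the share that COX3 took of all mitochondrial UMIs. The Pre-IS share was 71.9% (70.8 to 73.0) in T cells and the Post-IS share 56.4% (53.6 to 59.1), with 75.5% at 4 wpt and 73.1% at 8 wpt. In the same library order it was 66.8% (65.4 to 68.2), 50.7% (49.4 to 52.1), 72.1% and 68.5% in CD14+ monocytes, and in MS4A7+ monocytes 70.5% (68.1 to 72.8), 52.1% (50.3 to 53.8), 74.4% and 71.5%. The Post-IS library stood below the other 3 in each class. The same held in labels too small for the gene comparison. COX3 took 47.5% (43.0 to 52.0) of mitochondrial UMIs in the 12 Post-IS B cells against 71.0% for Pre-IS, 55.0% (47.2 to 62.7) in the 9 NK cells against 71.0%, and 51.7% (42.4 to 60.9) in the 4 dendritic cells against 69.6%. Among cells of at least 1000 UMIs, a restriction chosen after seeing the data, it was 72.0% and 55.8% in T cells, 67.1% and 51.8% in CD14+ monocytes, and 72.1% and 52.8% in MS4A7+ monocytes.

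**Figure D3:**
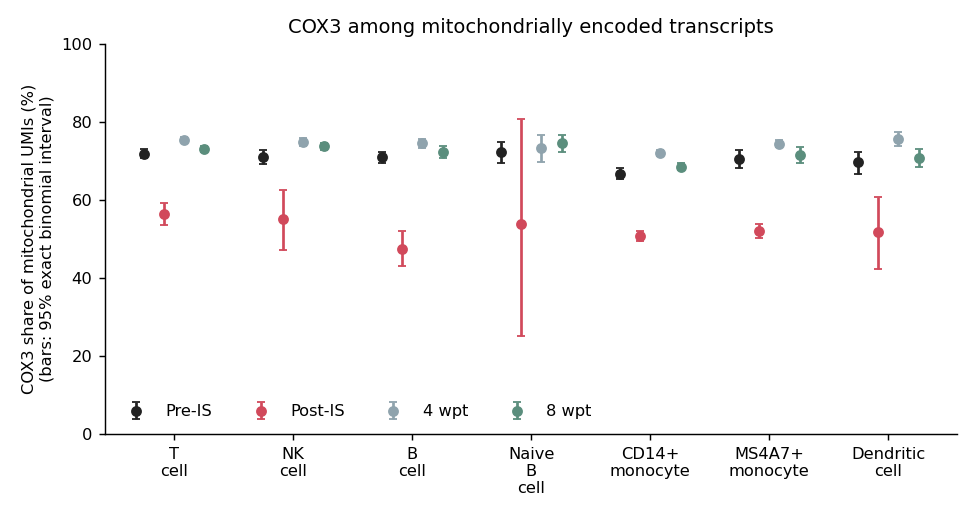
Share of COX3 among mitochondrially encoded UMIs in percent, for 7 labels in the 4 libraries, with 95% exact binomial intervals. Post-IS points (red) lie near 50%, below those of the other 3 libraries, with an interval for the single naive B cell that overlaps them.

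Mitochondrial transcripts took 0.491% of UMIs before and 0.869% after in T cells, 0.792% and 1.24% in CD14+ monocytes, and 1.5% and 2.29% in MS4A7+ monocytes. This share is also in common use as a measure of cell quality. In cells of at least 1000 UMIs the shares were 0.488% and 0.866%, 0.784% and 1.29%, and 1.28% and 1.69%. Genes of the respiratory chain that the nucleus encodes were not called in any class, with 0 of 68, 0 of 69 and 0 of 55 measured members either higher or lower. Their median log2 ratios were -0.08, -0.01 and -0.18. Of all measured genes 1.06%, 1.66% and 1.02% were called higher and 0.881%, 0.328% and 0.146% lower, so 0 calls here lay near those shares. By point ratio, 9, 1 and 11 members were at least 1.5-fold lower and 0, 0 and 2 at least 1.5-fold higher. Over all measured genes 22.6%, 14.1% and 12.9% were that far lower and 14.8%, 13.7% and 18.4% that far higher. Cell depth moved with the library too, and its part in the makeup of mitochondrial RNA was not tested beyond the restriction to deeper cells.

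A looser rule, chosen after seeing the data, asked for a ratio of at least 1.5 with an interval above 1 in each class. It found 16 genes (0.968%) higher in all 3 and 3 (0.181%) lower in all 3. Of the 16, 7 were mitochondrial and 3 had no symbol. The others were BTG1, an antiproliferative gene, the RNA-binding splicing regulator MBNL1, the kinase gene STK17B, PRRC2C, CACYBP and ZC3H10. BTG1 stood at 1253 and 2087 CPM in T cells, 710 and 1525 in CD14+ monocytes, and 460 and 1407 in MS4A7+ monocytes. Its ratios were 1.67 (1.47 to 1.89), 2.15 (1.89 to 2.44) and 3.06 (2.21 to 4.32), and the T cell value fell just short of the call. At 4 wpt and 8 wpt BTG1 was at 1208 and 1133 CPM in T cells and at 595 and 518 in CD14+ monocytes, below Post-IS in both. MBNL1 was at 1.51 (1.22 to 1.84), 1.55 (1.24 to 1.94) and 1.73 (1.16 to 2.63).

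The 3 lower genes were RASSF1, a tumour suppressor, IKBKG, the regulatory subunit of the kinase that activates NF-kB, and IFI35, an interferon-induced gene. IKBKG stood at 138 and 48.7 CPM in T cells, 193 and 123 in CD14+ monocytes, and 450 and 196 in MS4A7+ monocytes. It was 2.83-fold (1.35 to 7.13), 1.58-fold (1.13 to 2.23) and 2.30-fold lower (1.39 to 3.85). RASSF1 was 1.54-fold (1.07 to 2.32), 1.80-fold (1.16 to 2.84) and 2.07-fold lower (1.17 to 3.72). IFI35 rested on 2 Post-IS UMIs in T cells, with a ratio of 0.213 (0.0255 to 0.794), and was 2.02-fold (1.28 to 3.25) and 2.03-fold lower (1.05 to 4.00) in the monocyte labels. ACTB, cytoplasmic beta-actin, and TMSB4X, which binds actin monomers, had smaller decreases, with intervals under 1 in each class. ACTB ratios were 0.659 (0.616 to 0.705), 0.841 (0.811 to 0.872) and 0.791 (0.731 to 0.856), and those of TMSB4X 0.760 (0.707 to 0.815), 0.720 (0.678 to 0.764) and 0.809 (0.740 to 0.885).

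**Figure D4:**
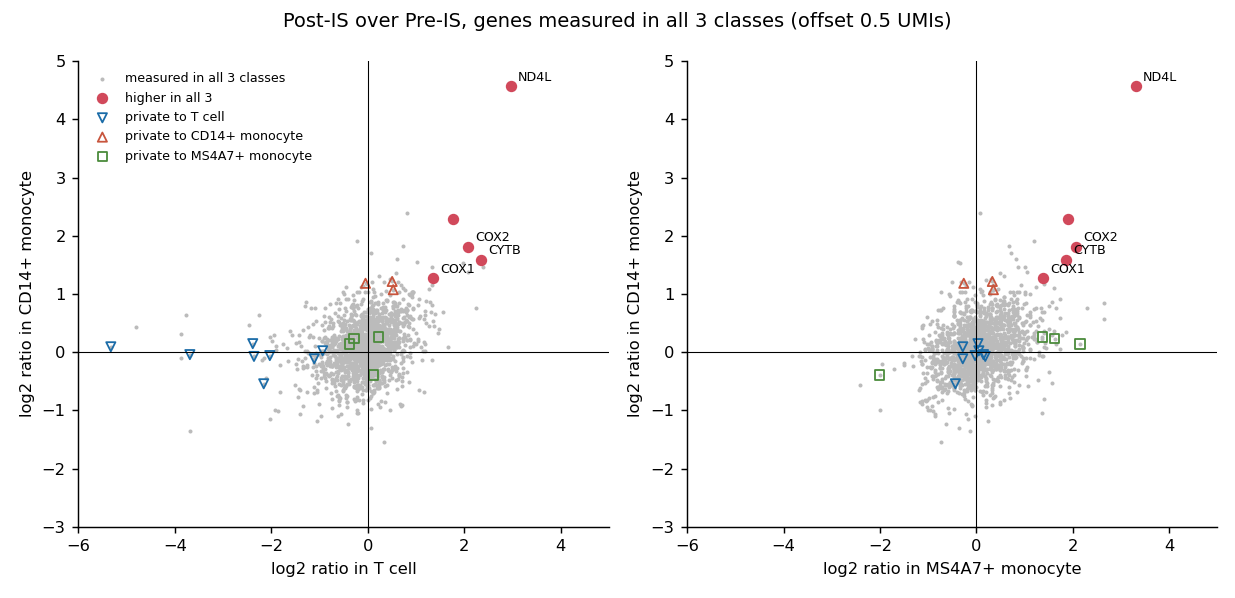
Log2 ratio of Post-IS over Pre-IS for the genes measured in all 3 classes, CD14+ monocytes against T cells on the left and against MS4A7+ monocytes on the right. Filled red points are the 5 genes higher in all 3, and open symbols are genes private to 1 class that were measured in all 3.

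Calls shared by any 2 classes were few. T cells and CD14+ monocytes had 9 genes called higher in both, T cells and MS4A7+ monocytes 7, and the monocyte labels 9 of the 1999 measured in both (0.45%), each count including the 5 above. In the monocyte labels the others were TXNIP, TIMP1, CD163 and BTG1. TIMP1, an inhibitor of matrix metalloproteinases, stood at 520 and 1966 CPM in CD14+ and 720 and 1646 CPM in MS4A7+ monocytes, and at 84.4 and 69.6 CPM in T cells. The ratios were 3.78 (3.30 to 4.34), 2.29 (1.75 to 3.03) and 0.824 (0.385 to 1.57). The CD14+ ratio was 4.59 times (2.36 to 9.94) and the MS4A7+ ratio 2.78 times (1.35 to 6.21) that of T cells. TXNIP, an inhibitor of thioredoxin that glucocorticoids and glucose induce, was at 1.80 (1.61 to 2.02) and 2.06 (1.65 to 2.59) in the monocyte labels and 1.11 (0.895 to 1.36) in T cells. CD163, the haemoglobin scavenger receptor of monocytes and macrophages, was at 2.29 (1.88 to 2.81) and 4.11 (1.71 to 12), and had 0 UMIs in T cells of both libraries.

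A private change needed a call in 1 class, point ratios within 1.5-fold in the other 2 with at least 20 UMIs there, and an interval of the ratio of ratios that left out 1 against each. Of 1856 genes that could be judged so, 15 met it. For T cells these were 0 higher (0%) and 8 lower (0.431%). CD14+ monocytes had 3 higher (0.162%) and 0 lower (0%), and MS4A7+ monocytes 3 higher (0.162%) and 1 lower (0.0539%). The private changes of T cells were thus all decreases and those of monocytes nearly all increases. With cells thinned to 1000 UMIs, which also left out every cell below that depth and kept 85 of 115 Post-IS T cells, 187 of 329 CD14+ and 55 of 131 MS4A7+ monocytes, 4 of the 15 remained (CX3CR1, HBA, RNF167 and ENSMMUG00000055690). Where class sums were thinned to the same totals, 3 of the 15 remained (FTH1, HSPA8 and TYROBP). That setting also cut the genes measured from 3972 to 1515 in T cells and from 4577 to 1693 in CD14+ monocytes. Equal totals and fewer counts came together there, and their parts in the lost calls were not tested.

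CX3CR1, the fractalkine receptor of effector T cells, NK cells and nonclassical monocytes, had 188 UMIs in Pre-IS T cells (139 CPM, 15.5% of cells) and 0 in Post-IS T cells. At 4 wpt and 8 wpt it stood at 85.1 and 194 CPM there. With 3 counts as the floor for the Post-IS T cells, the level was at least 6.67-fold lower, and the 95% interval of the ratio reached down to 5.37-fold lower. In CD14+ monocytes CX3CR1 was at 128 and 136 CPM and in MS4A7+ monocytes at 520 and 428 CPM, with ratios of 1.06 (0.743 to 1.52) and 0.823 (0.557 to 1.22). The loss of CX3CR1 UMIs was thus seen under the T cell label and not under the monocyte labels.

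STXBP2, a syntaxin-binding protein needed for cytotoxic granule release, went from 168 to 3 UMIs in T cells (124 and 20.9 CPM), 5.96-fold lower (2.01 to 29.2). It was at 0.949 (0.725 to 1.24) in CD14+ and 1.14 (0.683 to 1.95) in MS4A7+ monocytes. MYO1F, a myosin of immune cells, went from 146 to 3 UMIs and GPR141, an orphan receptor, from 122 to 2, 5.18-fold (1.74 to 25.4) and 6.49-fold lower (1.76 to 54.2). MYO1F was 1.46-fold lower (1.13 to 1.90) in CD14+ monocytes, close to the bound of the rule. PRDM2, a histone methyltransferase gene, went from 60 UMIs to 0, at least 2.13-fold lower by the floor of 3 counts, with an interval that reached down to 1.68-fold lower.

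TYROBP, the signalling adaptor of NK and myeloid receptors also known as DAP12, stood at 577 and 264 CPM in T cells, 2868 and 2650 in CD14+ and 2169 and 1784 in MS4A7+ monocytes. It was 2.18-fold lower in T cells (1.58 to 3.11) and had ratios of 0.924 (0.856 to 0.997) and 0.823 (0.683 to 0.992) in the monocytes. FTH1, the ferritin heavy chain that stores iron, stood at 1122 and 584 CPM in T cells, 3709 and 3769 in CD14+ and 5877 and 6093 in MS4A7+ monocytes. It was 1.92-fold lower in T cells (1.54 to 2.42) and within 1.04-fold of Pre-IS in both monocyte labels. HBA, a haemoglobin chain of red cells, had 172 and 4 UMIs under the T cell label, 298 and 234 under CD14+ and 25 and 34 under MS4A7+. The other 3 red cell markers in the table were at 0 under the T cell label, and the part of red cells or free RNA in this value was not tested.

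Many of the genes lower in T cells were those that NK cells carry at their highest. Of the 35, 15 (42.9%) had their highest Pre-IS level in NK cells among the 6 labels of at least 50 cells, against 18.3% of all 3972 genes measured in T cells and 1 of the 42 higher genes. A further 11 (31.4%) had it in MS4A7+ monocytes, against 27.9%, and 3 (8.57%) in T cells, against 14.0%. These genes were chosen by a ratio that holds the Pre-IS T cell level, so the shares describe them and carry no test. Cytotoxic effector genes were 10 of 17 lower and 0 higher, with a median log2 ratio of -1.36, or -1.18 with 3 genes at 0 UMIs set to their bound. Of all genes measured in T cells 0.881% were called lower and 1.06% higher. NKG7, a granule membrane protein, stood at 1024 and 397 CPM and was at 0.387 (0.292 to 0.505). HCST, the DAP10 adaptor, stood at 927 and 369 CPM and was at 0.398 (0.296 to 0.523). The NK markers under the T cell label had moved the same way, from 2660 to 1461 CPM, and their part in these decreases was not tested. Of the 76 genes higher in CD14+ monocytes, 38 (50%) had their highest Pre-IS level in MS4A7+ monocytes, against 34.8% of all 4577 measured. Choosing genes by a high ratio favours a low Pre-IS level under the CD14+ label, so this share describes them and carries no test. MS4A7+ monocytes were also the most frequent highest label over all genes measured in T cells (27.9%) and in MS4A7+ monocytes (48.0%). Summed nonclassical markers under the CD14+ label stood at 578 and 1016 CPM, in 57.0% and 49.5% of cells, with 1 and 0 of 9 at 0, and their part in the increases was not tested.

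T cell identity genes moved less. Of 22 measured genes of the CD3 complex and T cell receptor signalling, 1 was called lower (ZAP70, the kinase recruited to the CD3 chains, at 292 and 90.5 CPM) and 0 higher, and the median log2 ratio was -0.38. CD3D stood at 1136 and 988 CPM and CD3E at 1382 and 981 CPM, with ratios of 0.870 (0.727 to 1.03) and 0.710 (0.594 to 0.843). LAT, the adaptor below the receptor, stood at 627 and 341 CPM and was at 0.543 (0.399 to 0.725), short of the call. Naive and central memory genes were 2 of 15 higher and 0 lower, with a median of 0.44. For both lists, the shares over all genes measured in T cells were 1.06% higher and 0.881% lower. IL7R, the interleukin 7 receptor, stood at 1117 and 1510 CPM and was at 1.35 (1.17 to 1.56), on the higher side without a call.

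In CD14+ monocytes, RNF167, a ubiquitin ligase gene, stood at 275 and 626 CPM, with 584 and 564 in T cells and 930 and 776 in MS4A7+ monocytes. The ratio was 2.27 (1.86 to 2.79), which was 2.36 times (1.72 to 3.23) that of T cells and 2.72 times (1.91 to 3.88) that of MS4A7+ monocytes. MCL1, a BCL2 family gene that protects myeloid cells from apoptosis, stood at 383 and 807 CPM, a ratio of 2.11 (1.77 to 2.51), against 1.43 (1.04 to 1.93) in T cells and 1.29 (0.836 to 2.0) in MS4A7+ monocytes. ENSMMUG00000055690 was at 2.32, against 1.42 (1.32 to 1.53) in T cells and 1.26 (1.14 to 1.39) in MS4A7+ monocytes. It was thus higher in each class, and its change differed in size.

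In MS4A7+ monocytes the private increases were HSPA8, ISG20 and SCP2, and the decrease was AKR1A1. HSPA8, a constitutive HSP70 chaperone, stood at 370 and 965 CPM, against 1187 and 1385 in T cells and 586 and 702 in CD14+ monocytes. Its ratio of 2.61 (1.80 to 3.86) was 2.24 times (1.49 to 3.40) that of T cells and 2.18 times (1.45 to 3.33) that of CD14+ monocytes. ISG20, an interferon-induced exonuclease, stood at 130 and 413 CPM, a ratio of 3.18 (1.72 to 6.34), against 0.812 (0.576 to 1.12) and 1.17 (0.829 to 1.65). SCP2, a peroxisomal lipid carrier, went from 4 to 27 UMIs, a ratio of 4.90 (1.71 to 19.3). The Post-IS levels of ISG20 and SCP2 exceeded those of this class at 4 wpt, 287 and 143 CPM, and at 8 wpt, 130 and 124 CPM. The aldo-keto reductase gene AKR1A1 went from 30 to 10 UMIs, 4.13-fold lower (1.97 to 9.48), and was at 0.759 (0.539 to 1.06) in CD14+ monocytes.

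**Figure D5:**
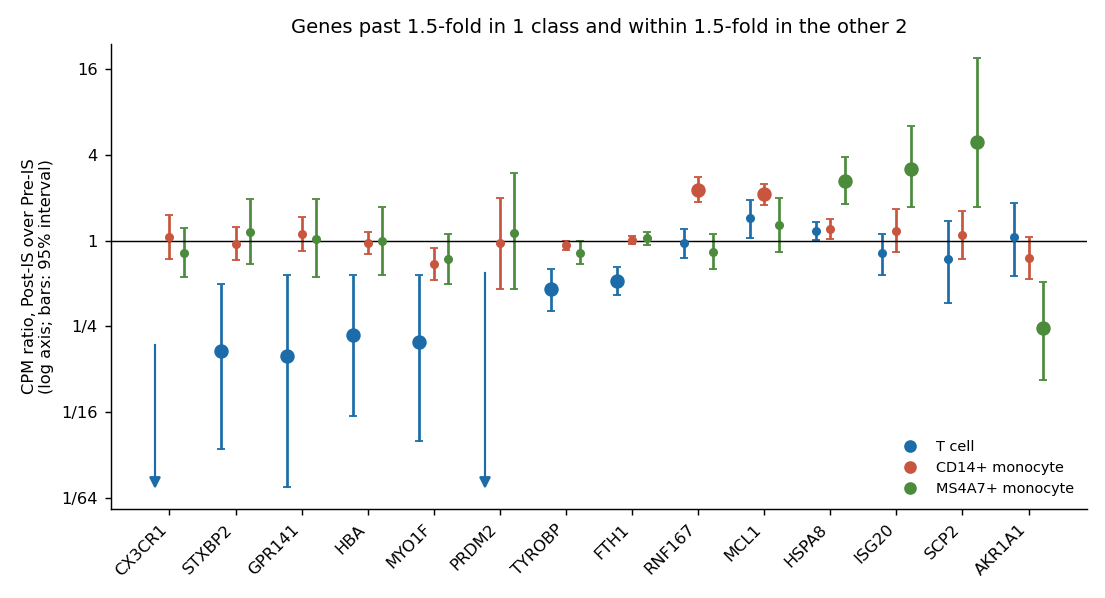
CPM ratio of Post-IS over Pre-IS on a log axis with 95% intervals for the 14 private genes that have a symbol, the larger point marking the class of the call. Arrows start at the upper bound where Post-IS had 0 UMIs. CX3CR1 to FTH1 lie below 1 in T cells, with both monocyte labels closer to 1. MYO1F is at 0.685 in CD14+ and 0.740 in MS4A7+ monocytes.

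Outside the private genes, class ratios were also set against each other for every called gene, a step added after seeing the data. Of the 76 genes higher in CD14+ monocytes, 45 had at least 20 UMIs in MS4A7+ monocytes. Of these 39 lay above 1 there, 9 were called, and 20 had a ratio of ratios whose interval left out 1. Against T cells 55 could be compared, 43 lay above 1, 9 were called and 24 differed. Of the 21 genes higher in MS4A7+ monocytes all 21 lay above 1 in CD14+ monocytes, and 7 differed in size. Of the 35 genes lower in T cells, 23 could be compared with CD14+ monocytes, where 16 were on the same side of 1, 0 were called lower and 16 differed. These genes were selected by size in the first class, so the counts describe them and carry no test.

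Early response genes were called in CD14+ monocytes and in neither other class. The list of AP-1, EGR and NR4A genes, transcription factors switched on within minutes of a stimulus, had 11 of 19 measured members called higher in CD14+ monocytes, 0 of 8 in T cells and 0 of 12 in MS4A7+ monocytes. Medians were 1.07, -0.07 and 0.11. Over all measured genes 1.66%, 1.06% and 1.02% were called higher in the same class order. JUN, an AP-1 subunit, stood at 96.7 and 682 CPM in CD14+ monocytes and at 51.1 and 27.8 CPM in T cells. Its ratio of 7.05 (5.26 to 9.63) was 13.0 times (4.49 to 50.1) that of T cells, and in MS4A7+ monocytes JUN had 0 and 1 UMIs. KLF6, a zinc finger factor of the same list, was at 3.27 in CD14+ monocytes, 3.14 times (2.09 to 4.77) the T cell ratio. In MS4A7+ monocytes KLF6 was at 1.66 (0.920 to 3.14), and the CD14+ ratio was 1.96 times that (1.003 to 3.70). FOS lay on the higher side in each class: it was at 2.42 (2.25 to 2.60) in CD14+ monocytes, 7.26 (2.91 to 23.3) in MS4A7+ monocytes and 3.58 (1.37 to 8.41) in T cells, on 21 and 8 UMIs. FOS was not counted outside CD14+ monocytes, since its 362.6 CPM in MS4A7+ monocytes and 55.7 CPM in T cells lay under 10% of the CD14+ level, the limit set against free RNA.

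Some glucocorticoid-induced genes rose in each monocyte label, and most members were not called. There were 8 of 19 called higher in CD14+ monocytes, 4 of 14 in MS4A7+ monocytes and 0 of 14 in T cells, with 0 lower, and medians of 0.85, 0.97 and 0.37. Over all measured genes 1.66%, 1.02% and 1.06% were called higher in that order. FKBP5, a co-chaperone of the glucocorticoid receptor, stood at 108 and 167 CPM in T cells, 76.6 and 138 in CD14+ and 50 and 341 in MS4A7+ monocytes. Its MS4A7+ ratio was 4.42 times (1.51 to 15.2) that of T cells and 3.78 times (1.34 to 13.1) that of CD14+ monocytes. The labels name no steroid. FKBP5 was at 193 CPM at 4 wpt and 81.5 at 8 wpt in T cells, and at 245 and 27.5 CPM in MS4A7+ monocytes. Of the DUSP1 phosphatase gene, the ratio was 2.80 (2.51 to 3.13) in CD14+ and 1.95 (1.46 to 2.62) in MS4A7+ monocytes, a difference of 1.44 times (1.05 to 1.95).

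Heat shock and chaperone genes had medians of 0.40, 0.53 and 0.57 in T cells, CD14+ and MS4A7+ monocytes, with 0 of 15, 2 of 15 and 1 of 13 called higher and 0 lower. The shares called higher over all measured genes were 1.06%, 1.66% and 1.02%. HSP90AB1 was at 1.29 (1.08 to 1.55), 1.47 (1.23 to 1.75) and 1.64 (1.06 to 2.62), above 1 in each class without a call. In the NF-kB and inflammatory cytokine list, 3 of 12 members were higher in CD14+ monocytes, 0 of 5 in MS4A7+ monocytes and 0 of 2 in T cells. All measured genes had shares of 1.66%, 1.02% and 1.06% in that order. SOD2, the mitochondrial superoxide dismutase of that list, was at 1.88 (1.62 to 2.19) in CD14+ and 0.501 (0.369 to 0.678) in MS4A7+ monocytes.

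MHC class II presentation genes were called in 0 of 9 cases in either monocyte label, with medians of -0.49 and -0.25. Over all measured genes 1.66% and 1.02% were called higher and 0.328% and 0.146% lower, so 0 of 9 was near these shares. CD74, the invariant chain, went from 24903 to 17703 CPM in CD14+ and from 18961 to 13810 CPM in MS4A7+ monocytes, with ratios of 0.711 (0.691 to 0.731) and 0.728 (0.683 to 0.777). MAMU-DRA was at 0.655 (0.617 to 0.696) and 0.799 (0.668 to 0.956), and MAMU-DRB1 at 0.716 (0.679 to 0.755) and 0.783 (0.687 to 0.893). The thiol reductase IFI30 of the same list lay the other way, at 1.14 (1.06 to 1.23) and 1.59 (1.27 to 2.01). Of the 9 members, 6 had an interval under 1 and 2 above it in CD14+ monocytes, and 3 and 2 in MS4A7+ monocytes. Over all measured genes 387 of 4577 and 100 of 2053 had an interval under 1, and 533 and 132 above it. Among Fc receptor and adaptor genes, FCER1G was at 1.70 (1.58 to 1.83) in CD14+ and 0.815 (0.724 to 0.917) in MS4A7+ monocytes, and FGR, a Src family kinase, at 1.02 (0.869 to 1.19) and 0.556 (0.442 to 0.698). The monocyte labels thus differed in direction for some genes.

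Type I interferon-stimulated genes had 0 of 8 members called in T cells, 0 of 15 in CD14+ monocytes and 1 of 11 (ISG20) in MS4A7+ monocytes, with medians of -0.05, 0.04 and 0.01. Over all measured genes 1.06%, 1.66% and 1.02% were called higher and 0.881%, 0.328% and 0.146% lower. Lists this short cannot separate 0 or 1 call from these shares. Of the ribosomal protein genes, RPS15A was called higher in T cells, at 3.07 (1.63 to 5.49), and RPL38 lower in CD14+ monocytes, at 0.553 (0.506 to 0.605), with no other member called in any class. In T cells 26 of 79 had an interval above 1 and 9 under it, in CD14+ monocytes 2 of 78 above and 62 under, and in MS4A7+ monocytes 0 of 77 above and 11 under. Over all measured genes, intervals lay above and under 1 for 278 and 272 of 3972, 533 and 387 of 4577, and 132 and 100 of 2053. Ribosomal medians were 0.07, -0.28 and -0.10. RPL32 was at 1.16 (1.10 to 1.22) in T cells, 0.801 (0.755 to 0.850) in CD14+ and 1.00 (0.862 to 1.16) in MS4A7+ monocytes.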

How the data were processed

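Peripheral blood mononuclear cells were profiled by droplet 5' single-cell RNA sequencing. Per the submitters' processing notes, the tools were Cell Ranger 3.1.0 and Seurat 3.2.3 and the build was Mmul_10. The authors deposited UMI counts per gene and cell with a cell type name for each cell, and those names were used unchanged. No cell was removed and no doublet caller was run. Of 2559 identifiers without a symbol, 400 were matched to one and 2159 kept their identifier.

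Counts were summed per library and class and divided by the class total. A gene was measured with at least 20 UMIs over both libraries, detection in 5% or more of its cells in 1 library, and at least 10% of the level of the highest class in the library where it was higher, a limit against free RNA. Python 3.11.15 with numpy 2.4.6, pandas 2.3.3 and SciPy 1.17.1 gave exact conditional binomial 95% intervals, and edgeR 4.0.16 in R 4.3.3 gave TMM factors for an alternative scaling. The code was tested on simulated data. Intervals and floors of 3 counts cover counting error only.

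Genes named were those called in all 3 classes, up to 5 private genes per class and direction by the interval bound nearest to 1, and the 2 to 4 most abundant measured members of each list described. Outside this rule, and chosen after their values were seen, are the genes shared by both monocyte labels or found by the looser rule, the other mitochondrial genes, PRDM2, TYROBP, FTH1, JUN, KLF6, FKBP5, ZAP70, ZEB2, RPS15A, RPL38 and both identifiers without a symbol. Members and lists were chosen with earlier results of these data known.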

Additional observations from a re-analysis of the deposited data

Results flagged for a closer look

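For 3 genes, one class lay past the 1.5-fold call and another had an interval wholly on the other side of 1. With 1 library a group, none of these differences was tested across replicates. ZEB2, a transcription factor of terminally differentiated effector T cells and NK cells, had 130 UMIs in Pre-IS T cells and 0 in Post-IS T cells, at least 4.61-fold lower by a floor of 3 counts, with an interval that reached down to 3.70-fold lower. In CD14+ monocytes ZEB2 was at 1.35 (1.10 to 1.66), and in MS4A7+ monocytes at 1.81 (1.32 to 2.50). FCER1G, the Fc receptor gamma chain, was at 1.70 (1.58 to 1.83) in CD14+ and 0.815 (0.724 to 0.917) in MS4A7+ monocytes, a ratio of ratios of 2.08 (1.81 to 2.39). SOD2 was at 1.88 (1.62 to 2.19) in CD14+ and 0.501 (0.369 to 0.678) in MS4A7+ monocytes, a ratio of ratios of 3.75 (2.67 to 5.29).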

How the results depend on the processing

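A set of 84 calls was checked, which includes called genes not named above, such as EGR1 and CEBPB in CD14+ monocytes. None of them changed direction under TMM or median-of-ratios scaling, with thinned cells, or without cells that carried markers of another lineage. Genes named without a call were not checked in this way. The counts of called genes moved with depth and threshold. No paired analysis was possible because each group was 1 library, so fewer than 2 replicate numbers were shared, and no replicate could be left out. With cells thinned to 1000 UMIs and shallower cells left out, 27 genes were higher in T cells, 42 in CD14+ and 13 in MS4A7+ monocytes, 3 in all 3 classes (COX1, COX2 and ND4L), and 8 were private, 4 of them among the 15. With class sums thinned to the same totals, 3 were higher and 13 lower in T cells, 23 higher and 5 lower in CD14+ monocytes, 2 higher in all 3 (COX1 and COX2), and 5 private. Of these 5, 3 were among the 15 (FTH1, HSPA8 and TYROBP). With the whole interval beyond 2-fold, 12 were higher and 9 lower in T cells, 34 and 1 in CD14+ monocytes, 6 and 0 in MS4A7+ monocytes, 3 higher in all 3, and 3 private. Without a minimum of UMIs, 80 were higher in T cells, 27 lower in CD14+ and 16 lower in MS4A7+ monocytes, and with a minimum of 50 UMIs 0 were lower in MS4A7+ monocytes. With both monocyte labels pooled, 9 genes were higher in both resulting classes. Among cells of at least 1000 UMIs, MS4A7+ monocytes were 2.50% of Pre-IS and 15.7% of Post-IS cells and T cells 24.2% of Post-IS cells. COX1 and COX2 were called in all 3 classes under each alternative that kept 3 classes. CYTB lost that call with a minimum of 50 UMIs. Of the 15 private genes 15 remained under TMM scaling, 13 under median-of-ratios scaling and 12 with ribosomal, mitochondrial, haemoglobin and immunoglobulin genes left out of the totals. Medians of gene lists changed sign, with both values beyond 0.1, in 6 of 70 cases without a minimum of UMIs and in 1 with an offset of 2 UMIs. Of the 84 calls checked, 36 were lost with thinned cells, 1 under TMM scaling and 1 without cells that carried markers of another lineage. The causes of these shifts were not tested.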
